A study of Nematostella vectensis and Apis mellifera and Strongylocentrotus purpuratus with 22 samples.

Results

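The honey bee HOX region on chromosome 16, from LAB at one end to ABD-B at the other, was almost free of CpG methylation in sperm, oocytes and embryos. Its main exception was a short block of 9 adjacent methylated CpGs. The region was taken between the coordinates that the study gives for it, on assembly GCA_000002195.1. Its members were the CpGs with at least 5 reads in each of the 6 honey bee samples, which made 34366 of the 73250 CpGs listed there for any sample. The same read minimum left 96815 of 210544 listed CpGs in the rest of chromosome 16 and 4874190 of 10022401 over all honey bee sequences. Members were 46.9% of the listed CpGs in the region and 46.0% in the rest of the chromosome.

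DNA methylation was measured by whole-genome bisulfite sequencing, in which unmethylated cytosines are read as thymines and methylated ones stay cytosines. The samples came from wild-type honey bees (Apis mellifera) and were sperm from drones, oocytes, worker embryos at blastoderm and gastrula, and drone embryos at the same stages. Oocytes were unfertilised eggs collected directly after queens had laid on drone combs, and drone embryos were eggs from such combs left to develop. Worker embryos came from eggs laid on worker combs. Each stage is 1 set of calls in which 2 replicates were pooled, so no spread between replicates could be computed, and tests between stages compare libraries rather than conditions. The methylation level of a CpG is its methylated reads over all its reads, from 0 to 1. The level is not corrected for cytosines that escaped bisulfite conversion.

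HOX genes encode homeodomain transcription factors that give body segments their identity along the head-to-tail axis. In insects LAB (labial) acts in the head, and PB, ZEN, DFD and SCR follow it in the cluster, where ZEN has lost the homeotic role and acts in extraembryonic tissue in insects such as Drosophila. ANTP acts in the thorax, UBX in the hind thorax and front abdomen, and ABD-A and ABD-B in the abdomen, with ABD-B at the tail end. In honey bee, as in other insects studied, CpG methylation is sparse and is found mainly in the exons of a part of the genes, and drones arise from unfertilised eggs while workers arise from fertilised ones. The positions of exons and promoters of the 9 genes were not analysed here, so the CpGs below are placed by coordinate only, and no sequence is shown.

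Depth differed widely between the stages. The reads summed over all CpGs were 485874694 in sperm, 47356912 in oocyte, 220134042 in worker blastoderm, 240893151 in drone blastoderm, 601450469 in worker gastrula and 169593389 in drone gastrula. The median over the members of the HOX region was 59, 7, 27, 30, 68 and 20 reads per CpG in the same order. The oocyte sample was the shallowest and limited which CpGs met the read minimum, with 34644 CpGs of the region at 5 reads or more against 65956 to 71451 in the other samples. The intervals below are Wilson 95% intervals, which cover counting error only, since reads without molecular identifiers need not be independent molecules.

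The listed CpGs of the region began at position 2151191 and ended at 3517761 of chromosome 16, within a stretch of 1378.5 kb. No CpG was listed in the first 11.9 kb of the stretch next to its low-coordinate end, and none in the 50059 bp between 2156268 and 2206327, while the next largest spacing in the region was 2630 bp. Whether these gaps are unknown sequence in the assembly was not tested. CpGs were denser in the region, with 53.1 listed CpGs per kb, than in the rest of chromosome 16, with 36.1 per kb, and without both gaps the region had 55.6 per kb. The median spacing between adjacent CpGs was 10 bp in the region and 12 bp in the rest of the chromosome.

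The first comparison asked whether the HOX region differs in methylation from the chromosome that carries it. The mean CpG level of the region was 0.00719 in sperm, 0.00678 in oocyte, 0.00738 in worker blastoderm, 0.00785 in drone blastoderm, 0.00831 in worker gastrula and 0.00831 in drone gastrula. In the rest of chromosome 16 the mean was 0.0145 in sperm, 0.0135 in oocyte, 0.0148 in worker blastoderm, 0.0150 in drone blastoderm, 0.0153 in worker gastrula and 0.0153 in drone gastrula. The region was lower in all 6 samples and the values of the region and the rest did not overlap. The mean difference was -0.00709 ± 0.00027 (SD, n = 6 samples; exact two-sided sign-flip permutation test, p = 0.03125, the smallest p that 6 samples allow). The same CpGs enter every sample, so this p covers the spread between samples and says nothing about how often a stretch of this length would be low.

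Methylated CpGs, taken as those with a level of at least 0.5, were rarer still. Of the 34366 members, 4 reached that level in sperm, 4 in oocyte, 4 in worker blastoderm, 3 in drone blastoderm, 4 in worker gastrula and 3 in drone gastrula. As a share this was 0.0116% in sperm, oocyte and both worker stages (interval 0.00453% to 0.0299%) and 0.00873% in both drone embryos (0.00297% to 0.0257%). In the rest of chromosome 16, 739, 674, 708, 722, 703 and 741 CpGs reached it in the same sample order, or 0.763%, 0.696%, 0.731%, 0.746%, 0.726% and 0.765%. The intervals of the region and the rest did not overlap in any sample. They treat CpGs as independent, but methylated CpGs can be neighbours. On the reads of all samples together, runs of methylated CpGs were up to 9 long in the region and 18 in the rest. The intervals are therefore too narrow to judge the difference by. The share was lower in the region by 0.727 percentage points on average (SD 0.0268, n = 6, lower in 6 of 6; exact two-sided sign-flip permutation test, p = 0.03125). Without the methylated window described below, the region averaged 0.00194% over the 6 samples, against 0.738% in the rest of the chromosome.

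**Figure D1:**
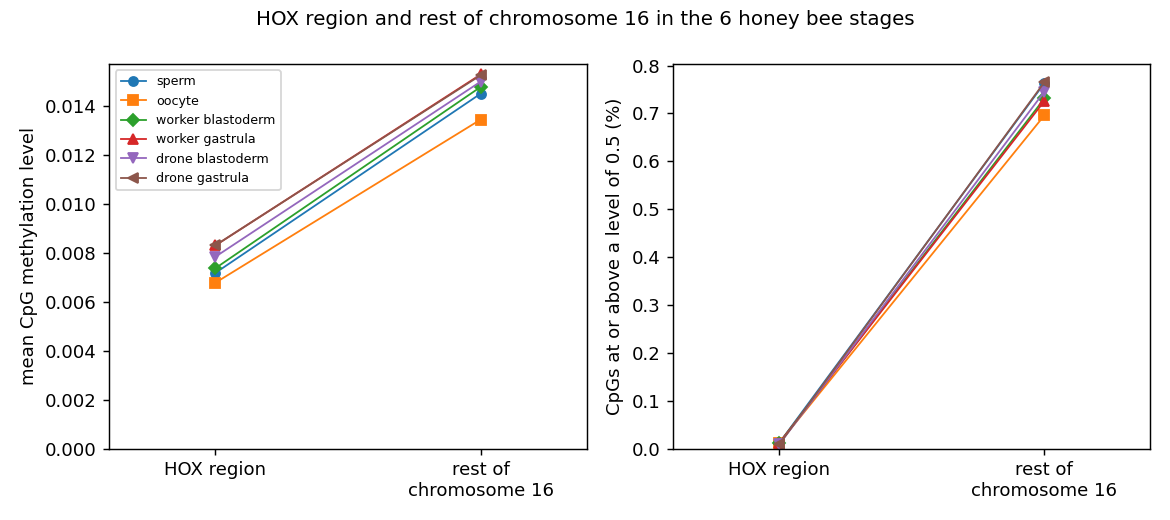
Mean CpG methylation level (left axis, level from 0 to 1) and percent of CpGs with a level of at least 0.5 (right axis) in the HOX region and the rest of chromosome 16, with 1 line per sample. All 6 lines run higher in the rest of the chromosome, with means of 0.0135 to 0.0153 there against 0.00678 to 0.00831 in the region.

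CpG density moved with this result. Windows of 1000 bp with 60 or more listed CpGs held 73.1% of the region's members and 50.6% of the members in the rest of chromosome 16, and no CpG in such windows reached 0.5 in any sample on either side. Windows with fewer than 20 CpGs held 0.640% of the region's members and 4.10% of those in the rest. In these sparse windows 1.36% of the region's 220 members reached 0.5 in every sample, against 14.3% to 15.6% in the rest, depending on the sample. Those of the region were the 3 adjacent members of the methylated window described below, so the 1.36% comes from 1 place. In windows with 20 to 39 CpGs none of 2233 members reached it in the region, while 0.675% to 0.844% did in the rest. In windows with 40 to 59 CpGs, which held 6801 or 19.8% of the region's members, the region stood at 0% to 0.0147% and the rest at 0.0172% to 0.0310%, and the mean levels of 0.00687 to 0.00805 in the region overlapped those of 0.00726 to 0.00834 in the rest. When the rest was weighted to the density classes of the region, a choice made after seeing the data, its share averaged 0.150% against 0.0107% in the region, and the difference shrank to -0.139 percentage points (exact two-sided sign-flip permutation test, p = 0.03125, n = 6). The mean level then differed by -0.00134 with the same p. The region remained lower in 6 of 6 samples for both measures.

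**Figure D2:**
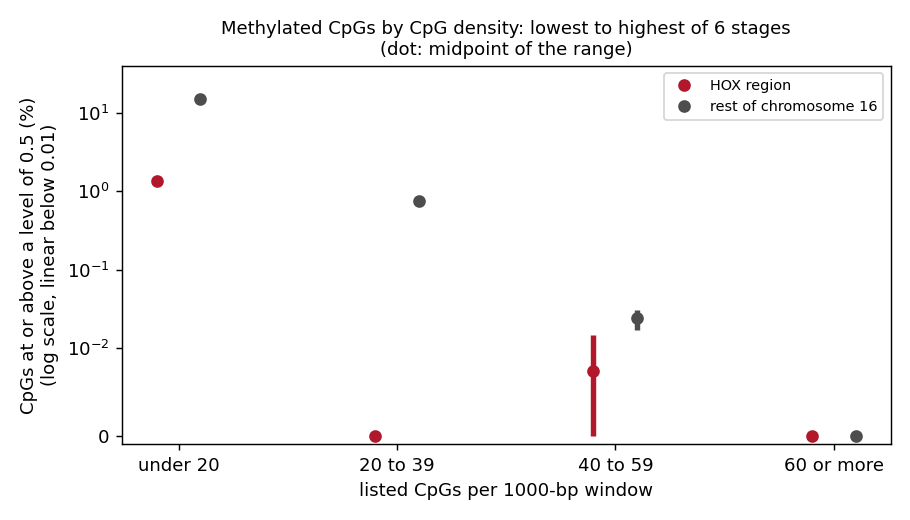
Percent of CpGs with a level of at least 0.5 (vertical axis, logarithmic above 0.01 and linear below) by the number of listed CpGs in their 1000-bp window (horizontal axis), in the HOX region and the rest of chromosome 16; bars run from the lowest to the highest of the 6 samples and dots mark the middle of that range. In windows with fewer than 20 CpGs the region stands at 1.36%, from 3 adjacent CpGs, and the rest at 14.3% to 15.6%. Both are at 0 in the densest windows.

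The low level of the region was close to that of unmethylated CpGs elsewhere on the chromosome. Leaving out all CpGs whose reads over the 6 samples together gave a level of at least 0.2, the mean was 0.00754 in the region and 0.00789 in the rest of chromosome 16. The difference was -0.00035, with the region lower in 5 of 6 samples, and did not pass the test (exact two-sided sign-flip permutation test, p = 0.0625, n = 6). The share of members without a single methylated read in any sample was 22.2% in the region and 21.6% in the rest. The lambda DNA controls of the study give a share of unconverted cytosines of the same size as these means, so the means of the region and their differences between samples cannot be told apart from incomplete conversion.

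At a lower bar of 0.2 the oocyte stood apart from the other samples. In the region 311 members had a level of at least 0.2 in oocyte, against 5 in sperm, 6 in worker blastoderm, 8 in drone blastoderm, 4 in worker gastrula and 13 in drone gastrula. Of these 311, 278 rested on 1 methylated read, 285 were covered by exactly 5 reads, and 4 reached 0.2 in any other sample. At 5 reads, 1 methylated read suffices for a level of 0.2. The shares in the region were 0.905% in oocyte and 0.0116% to 0.0378% in the other samples. Oocyte stood apart in the rest of chromosome 16 too, so this was not particular to the region. There 1870 members, or 1.93%, reached 0.2 in oocyte, against 0.956% to 0.994% in the other samples.

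Along chromosome 16 the region was low throughout its listed CpGs, apart from the block and the single CpGs described below. All 13 of the 100-kb tiles that lay wholly inside the region had a mean level between 0.00678 and 0.00886 in sperm, and none was above 0.0105 in any sample. The 54 tiles outside ranged between 0.00644 and 0.259 in sperm, and 27 of them were not above the highest tile inside. In sperm 11 of the 13 tiles inside and 23 of the 54 outside held no methylated member. Low tiles were common on the chromosome, and none of its high tiles lay inside the region. The longest stretch of chromosome 16 without a CpG at 0.5 or above, judged on at least 30 reads over all 6 samples together, lay inside the region. It ran between the methylated CpGs at 2466579 and 3430603, over 964.0 kb with 53928 CpGs of that depth, and the next longest on the chromosome was 687.8 kb and lay outside the region.

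**Figure D3:**
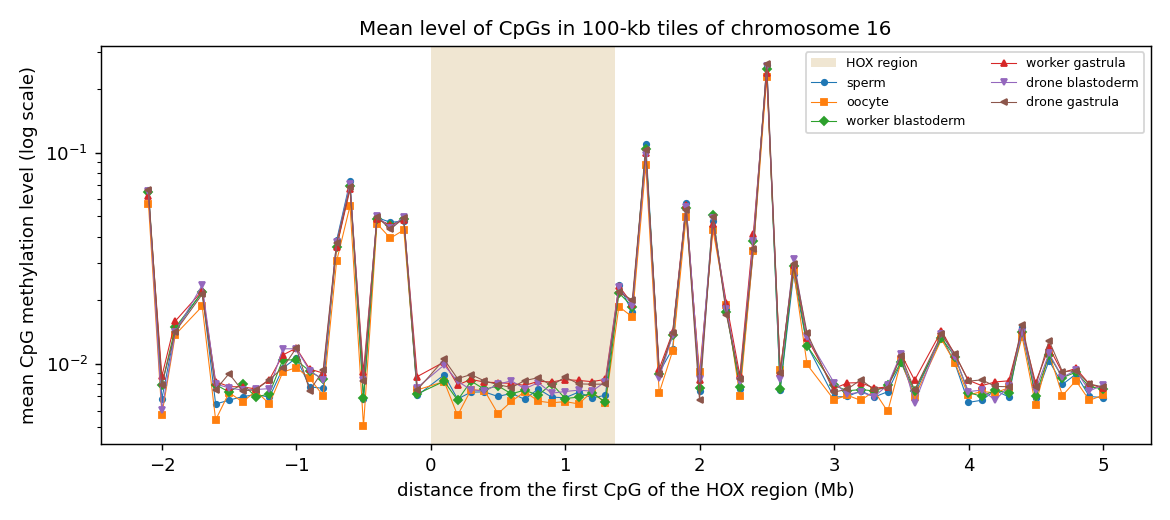
Mean CpG methylation level (vertical axis, logarithmic) of 100-kb tiles of chromosome 16 with at least 200 members, by distance of the tile's centre from the first CpG of the HOX region in Mb (horizontal axis), with 1 line per sample and the region shaded. The 13 tiles inside stay between 0.00678 and 0.00886 in sperm, while tiles outside reach 0.259.

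Set beside stretches of the same length on all chromosomes, the region was near the lowest but not alone. Chromosomes 1 to 16 were divided into 150 whole tiles as long as the region, leaving out those that overlap it. In sperm 1 of the 150 tiles had a lower mean level than the region, in oocyte 0, at both worker stages 2 and at both drone stages 4. For the share of CpGs at 0.5 or above, 1 tile was lower in sperm, oocyte and both worker stages and 0 in the drone stages. The median tile had a share of 0.428% in sperm. The tiles were not matched to the region in CpG density. The lowest tile had a mean level of 0.00714 in sperm against 0.00719 in the region, so ranks by mean level rest on small differences.

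The methylated window of the region was found as its 1000-bp window with the highest mean level. It covered positions 2213001 to 2214000 of chromosome 16 and held 10 listed CpGs, of which 3 had at least 5 reads in all 6 samples. Of the 1089 windows of the region with at least 3 members it was the only one with a level of at least 0.2 in any sample. Its level over those 3 CpGs was 0.979 in sperm, 0.638 in oocyte, 0.953 in worker blastoderm, 0.971 in drone blastoderm, 0.915 in worker gastrula and 0.941 in drone gastrula. The second highest window of the region reached 0.0545 in sperm and 0.0679 in oocyte. In the rest of chromosome 16, 149 of 4006 windows had a level of at least 0.2 in sperm, or 3.72%, against 0.0918% in the region.

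CpG by CpG the window began unmethylated. At 2213069 no methylated read was found among 7 reads in sperm, 3 in oocyte, 22 in worker blastoderm, 4 in drone blastoderm, 55 in worker gastrula and 11 in drone gastrula. At 2213117 the only methylated read was 1 of 41 in worker gastrula. At 2213206 none was methylated, but coverage was low, with 2, 1, 4, 5, 12 and 3 reads in the same sample order. These 3 CpGs and the 5 before them, back to 2212820, together had 0 methylated of 140 reads in sperm, 2 of 30 in oocyte, 0 of 131 in worker blastoderm, 1 of 82 in drone blastoderm, 3 of 542 in worker gastrula and 2 of 119 in drone gastrula. The upper limit of the interval was 0.0267 in sperm and 0.0285 in worker blastoderm.

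The change came within 184 bp, between 2213206 and 2213390. At 2213390 29 of 30 reads were methylated in sperm, 4 of 4 in oocyte, 13 of 14 in worker blastoderm, 11 of 13 in drone blastoderm, 63 of 64 in worker gastrula and 10 of 11 in drone gastrula. At 2213412, 22 bp further on, the counts were 31 of 32 in sperm, 3 of 3 in oocyte, 15 of 16 in worker blastoderm, 16 of 18 in drone blastoderm, 72 of 74 in worker gastrula and 12 of 13 in drone gastrula. Both CpGs were highly methylated in every sample, and the drone blastoderm was the lowest at each, with 0.846 and 0.889.

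The next CpG, 2213490, had 49 of 53 methylated reads in sperm, 2 of 4 in oocyte, 26 of 28 in worker blastoderm, 18 of 18 in drone blastoderm, 75 of 78 in worker gastrula and 8 of 9 in drone gastrula. At 2213781, after a gap of 291 bp without CpGs, they were 44 of 51 in sperm, 2 of 3 in oocyte, 27 of 27 in worker blastoderm, 32 of 32 in drone blastoderm, 99 of 108 in worker gastrula and 16 of 16 in drone gastrula. At this CpG sperm was the lowest of the samples with 5 or more reads, with 0.863 (interval 0.743 to 0.932), and both drone embryos and the worker blastoderm were at 1. Worker blastoderm and sperm did not differ there beyond counting error (difference 0.137, Fisher's exact test, unadjusted p = 0.0888, adjusted p = 1.0).

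The last 3 CpGs, close to the end of the window, met the read minimum in all samples. At 2213857 the methylated reads were 39 of 40 in sperm, 3 of 5 in oocyte, 30 of 31 in worker blastoderm, 25 of 25 in drone blastoderm, 93 of 101 in worker gastrula and 20 of 23 in drone gastrula. At 2213864 they were 38 of 38 in sperm, 3 of 5 in oocyte, 30 of 32 in worker blastoderm, 24 of 25 in drone blastoderm, 89 of 93 in worker gastrula and 20 of 21 in drone gastrula. At 2213933 they were 26 of 27 in sperm, 5 of 7 in oocyte, 21 of 22 in worker blastoderm, 20 of 21 in drone blastoderm, 71 of 82 in worker gastrula and 16 of 16 in drone gastrula. Oocyte was the lowest at all 3, on 5 to 7 reads. The first 2 of these CpGs lie 7 bp apart, so most of their reads can come from the same molecules.

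Methylation went on past the end of the window. At 2214232 the methylated reads were 10 of 10 in sperm, 1 of 2 in oocyte, 11 of 12 in worker blastoderm, 9 of 9 in drone blastoderm, 34 of 49 in worker gastrula and 7 of 7 in drone gastrula. The worker gastrula level of 0.694 (interval 0.555 to 0.805) was the lowest single value in the block among CpGs with 5 or more reads outside oocyte. It differed from worker blastoderm by -0.223 (Fisher's exact test, unadjusted p = 0.156, adjusted p = 1.0) and from drone gastrula by -0.306 (unadjusted p = 0.171, adjusted p = 1.0), neither beyond counting error. At 2214350 they were 17 of 17 in sperm, 3 of 4 in oocyte, 11 of 11 in worker blastoderm, 9 of 9 in drone blastoderm, 43 of 43 in worker gastrula and 6 of 7 in drone gastrula. The next CpG, 264 bp on at 2214614, had 0 methylated of 21 reads in sperm, 0 of 6 in oocyte, 0 of 23 in worker blastoderm, 0 of 17 in drone blastoderm, 1 of 78 in worker gastrula and 0 of 13 in drone gastrula. Over the first 8 CpGs after the block, up to 2214783, 2 of 154 reads were methylated in sperm and 12 of 665 in worker gastrula.

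**Figure D4:**
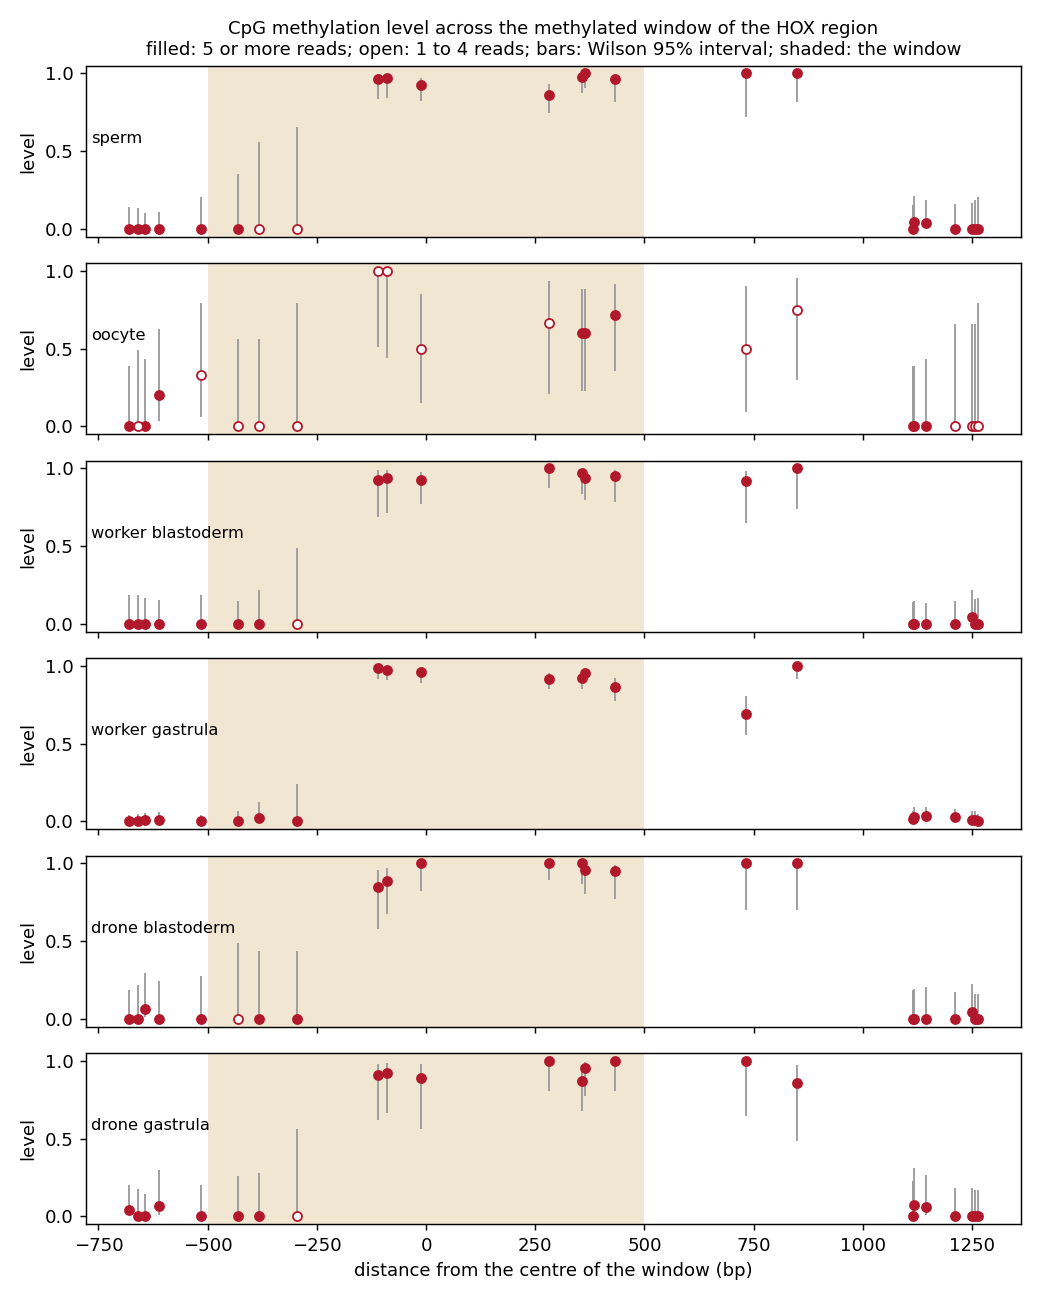
Methylation level of each CpG (vertical axis, 0 to 1) by distance from the centre of the methylated window in bp (horizontal axis), with 1 panel per sample; filled points have 5 or more reads, open points 1 to 4, bars are Wilson 95% intervals and the window is shaded. In every panel 3 CpGs at the left of the window are at or near 0, the 9 CpGs of the block are at 0.5 or above, and the CpGs to the right of the block are at or near 0 again.

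The block thus spanned 9 CpGs in 961 bp, with edges that could be placed only within CpG-free gaps of 184 and 264 bp. Its pooled reads gave 283 methylated of 298 in sperm, or a level of 0.95 (interval 0.919 to 0.969). They gave 26 of 37 in oocyte, or 0.703 (0.542 to 0.825), and 184 of 193 in worker blastoderm, or 0.953 (0.914 to 0.975). In worker gastrula 639 of 692 reads were methylated, or 0.923 (0.901 to 0.941), in drone blastoderm 164 of 170, or 0.965 (0.925 to 0.984), and in drone gastrula 115 of 123, or 0.935 (0.877 to 0.967). The oocyte interval lay below those of the other samples, and the other 5 overlapped each other. Oocyte gave 37 of the block's reads, so which CpGs counted as methylated was set mainly by the other samples. Neighbouring CpGs can also share reads, so the intervals can be too narrow. They do not settle whether the block was lower in oocyte. The median reads per CpG of the block were below those over the region's members in 5 samples, with 32 against 59 in sperm, 4 against 7 in oocyte, 22 against 27 in worker blastoderm, 18 against 30 in drone blastoderm and 13 against 20 in drone gastrula. In worker gastrula they were above, with 78 against 68.

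The second group of comparisons asked whether the methylated window or single CpGs of the region changed between gametes, between gametes and embryos, between embryo stages and between workers and drones. Every window of the genome with at least 3 CpGs was tested by Fisher's exact test on its reads and adjusted over 174218 windows by the Benjamini-Hochberg method. A window was called at an adjusted p below 0.05 with a difference of at least 0.2. Neighbouring CpGs can share reads, so these p-values can be smaller than independent molecules would give.

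Sperm was above oocyte in the methylated window. The summed counts were 103 methylated of 105 reads in sperm and 11 of 17 in oocyte, and the mean levels differed by 0.341 (unadjusted p = 7.23e-05, adjusted p = 0.0375, Fisher's exact test with adjustment over all windows). This was the only called window among 1089 in the region, a share of 0.0918%, and over the genome 0.118% of windows were called, so the region held no more than the background. The call was lost with 500-bp windows (adjusted p = 0.0525, Fisher's exact test) and when both samples were thinned to the lower depth at each CpG (adjusted p = 1.0). The 500-bp window held the same CpGs, reads and unadjusted p, and only the adjustment, over 283883 windows, changed. The CpGs at 2213857 and 2213864 lie 7 bp apart and each had 3 of 5 methylated reads in oocyte. The same molecules can be counted at both. Over all 7 methylated CpGs of the window the counts were 256 of 271 in sperm and 22 of 31 in oocyte. The call does not settle whether the level was lower in oocyte. In the rest of chromosome 16, 44 windows averaged at least 0.8 over the 4 embryo samples. Sperm was above oocyte in 40 of these 44, with a median difference of 0.0840 and a range of -0.0273 to 0.408, and 1 of them differed by as much as the methylated window of the HOX region. The oocyte level in them had a median of 0.799 and was at or below that of the HOX window in 2.

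Worker and drone blastoderm stood above oocyte by a like amount, but neither comparison was called. The gastrula samples were not compared with oocyte. Worker blastoderm had 81 methylated of 85 reads in the window and differed from oocyte by 0.315 (unadjusted p = 0.00127, adjusted p = 0.750, Fisher's exact test). Drone blastoderm, which develops from such an egg without sperm, had 69 of 71 and differed from oocyte by 0.333 (unadjusted p = 0.000500, adjusted p = 0.349, Fisher's exact test). None of the region's windows was called in either comparison, where 0.0172% and 0.0235% of windows were called over the genome. The 17 reads of oocyte limit both comparisons.

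Between worker blastoderm and sperm, and in the 4 comparisons among embryos, the window did not differ beyond counting error. The other embryo samples were not compared with sperm. Worker blastoderm differed from sperm by -0.0261. Worker gastrula, with 253 of 276 methylated reads, differed from worker blastoderm by -0.0387, and drone gastrula, with 56 of 60, from drone blastoderm by -0.0301. Worker and drone blastoderm differed by -0.0175, and worker and drone gastrula by -0.0261. The adjusted p was 1.0 in all 5 comparisons by Fisher's exact test, and the unadjusted p ranged between 0.349 and 0.798. With 5 reads needed only in the 2 samples compared, 8 CpGs entered for worker blastoderm against sperm. The counts were then 162 of 192 and 256 of 278 (Fisher's exact test, unadjusted p = 0.0108, adjusted p = 0.416). The mean levels differed by -0.000778. Among the CpGs added was the unmethylated 2213069, with 22 reads in worker blastoderm and 7 in sperm. No window of the region was called, while over the genome 0.129% were called in worker blastoderm against sperm, 0.0293% in worker gastrula against worker blastoderm, 0.0241% in drone gastrula against drone blastoderm, 0.00631% in worker against drone blastoderm and 0.218% in worker against drone gastrula.

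No single CpG of the region was called in any of the 8 comparisons. Each of the 34366 members was tested by Fisher's exact test with adjustment over 4874190 CpGs. At an unadjusted p below 0.05 there were 36 CpGs in sperm against oocyte, 45 in worker blastoderm against sperm, 20 in worker blastoderm against oocyte, 14 in drone blastoderm against oocyte, 56 in worker gastrula against worker blastoderm, 9 in drone gastrula against drone blastoderm, 4 in worker against drone blastoderm and 86 in worker against drone gastrula. Over the genome the share called was 0.000246%, 0.0307%, 0%, 2.05e-05%, 0.00419%, 0.000226%, 0% and 0.0727% in that order. Single CpGs were called by the thresholds given above for windows. The genome shares therefore compare with the lack of calls in the region, and not with its counts at unadjusted p. A call needs a level of at least 0.2 in 1 of the samples compared, which few members of the region had. Comparisons with oocyte were also limited by its depth, a median of 7 reads per member. The absence of calls there does not show that levels were unchanged. The smallest adjusted p was 0.284, in worker blastoderm against sperm. At 2213857 the unadjusted p was 0.0289 for sperm against oocyte, 0.0448 for worker blastoderm against oocyte and 0.0230 for drone blastoderm against oocyte, with differences of 0.375, 0.368 and 0.400 and an adjusted p of 1.0 each.

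Outside the block 7 further CpGs of the region reached a level of 0.5 in at least 1 sample with 5 or more reads. The CpG at 2457446 was the most highly methylated of them. It had 4 of 4 methylated reads in sperm, no reads in oocyte, 15 of 16 in worker blastoderm, 11 of 12 in drone blastoderm, 31 of 32 in worker gastrula and 27 of 28 in drone gastrula. The CpG at 3430603, near the high-coordinate end of the region, had 10 of 10 in sperm, 3 of 4 in oocyte, 13 of 15 in worker blastoderm, 11 of 13 in drone blastoderm, 58 of 62 in worker gastrula and 19 of 19 in drone gastrula. Both kept a level of at least 0.846 in every sample with 5 or more reads.

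A pair of CpGs lay lower, between 0.333 and 0.875 in the samples with 5 or more reads. At 2443773, the only single CpG with 5 reads in all samples, the counts were 10 of 13 in sperm, 5 of 8 in oocyte, 8 of 15 in worker blastoderm, 3 of 9 in drone blastoderm, 45 of 67 in worker gastrula and 3 of 7 in drone gastrula. The intervals of all 6 samples overlapped there, from 0.121 at the lower end in drone blastoderm to 0.918 at the upper end in sperm. At 2466579 the counts were 28 of 32 in sperm, 0 of 1 in oocyte, 6 of 9 in worker blastoderm, 2 of 3 in drone blastoderm and 39 of 52 in worker gastrula, with no reads in drone gastrula.

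The other 3 rested on few reads or on 1 sample. At 2206395 the counts were 2 of 5 in sperm, 1 of 1 in oocyte, 4 of 5 in worker blastoderm, 2 of 4 in drone blastoderm, 7 of 12 in worker gastrula and 0 of 1 in drone gastrula. At 2595433 methylated reads were 0 of 7 in sperm, 1 of 1 in oocyte, 4 of 7 in worker blastoderm, 0 of 3 in drone blastoderm and 2 of 10 in worker gastrula. At 3126958 drone blastoderm had 3 of 5, while sperm had 0 of 40 and worker gastrula 0 of 15. Levels between 0.2 and 0.5 were also sought on the reads of all samples together, at CpGs with at least 30 of them. In the region 2 of 69638 such CpGs, or 0.00287%, lay there. In the rest of chromosome 16 it was 628 of 202544, or 0.310%. The 2 CpGs of the region, named after their values were seen, were 2243886 with 17 of 67 methylated reads and 2519610 with 55 of 234.

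**Figure D5:**
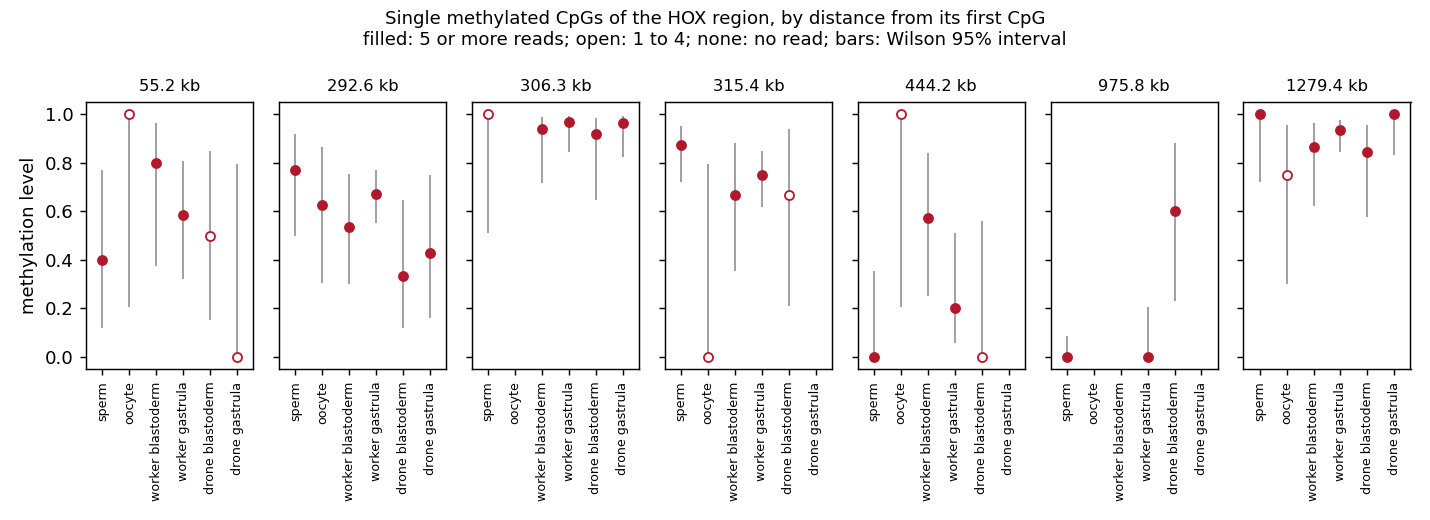
Methylation level (vertical axis, 0 to 1) in each of the 6 samples (horizontal axis) of the 7 CpGs outside the block that reached 0.5 in any sample with 5 or more reads, titled by their distance from the first CpG of the HOX region in kb; filled points have 5 or more reads, open points 1 to 4, and bars are Wilson 95% intervals. The CpGs at 306.3 and 1279.4 kb are high in every sample with 5 or more reads, and that at 975.8 kb is at 0.6 in drone blastoderm and at 0 in the other 2 samples with reads.

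The single CpGs that were methylated on at least 30 reads over all samples together shared a feature that the choice of the region did not use. It was seen in the data and is given without a test. With the reads of all samples together and at least 30 of them, 13 CpGs of the region were methylated, 9 in the block and 4 alone. The 4 alone lay 238 bp (2443773), 531 bp (2457446), 414 bp (2466579) and 530 bp (3430603) from their nearest listed CpG, while the median over the region was 6.0 bp. The single CpGs left out by depth or by their level over all samples did not all share it. Of these, 2206395 (16 of 28 reads) lay 68 bp and 3126958 (3 of 60) 12 bp from the nearest CpG, and 2595433 (7 of 28) 977 bp. In the region 16 CpGs of that depth lay 200 bp or more from the next CpG, and 4 of them, or 25.0%, were methylated, against 9 of 69622 closer ones, or 0.0129%. In the rest of chromosome 16, 140 of 434 such CpGs, or 32.3%, were methylated, against 0.814% of the closer ones.

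Of the 4 members of the region at 0.5 or above in any sample, 3 were so in all 6, against 531 of 931 in the rest of chromosome 16. These 3 are the adjacent CpGs of the methylated window, which was picked for its high level, and 4 CpGs are too few to set beside the rest. With the read minimum set on the 5 samples other than oocyte, an alternative added after seeing the data, 64296 CpGs of the region entered. Of the 11 that reached 0.5 in any of the 5 samples, 10 did so in all 5, against 1403 of 2170 in the rest. The 10 were the 9 CpGs of the block, which are neighbours and share reads, and the CpG at 3430603.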

How the data were processed

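Before depositing, the authors used Trimmomatic for trimming and Bismark for alignment to assembly GCA_000002195.1 plus lambda DNA, then took out duplicates and overlaps of paired reads (bamUtil). The labels name SAMtools 0.1.19. Deposited values are counts of methylated and unmethylated reads per CpG, with both strands merged, and the methylation level as a fraction, which the deposited counts gave within 5.55e-16. Positions count from 1 and assume that deposited starts count from 0. Counts of 2 replicates per stage were pooled by the authors.

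Levels were computed from counts with Python 3.11.15, numpy 2.4.6, pandas 2.3.3 and scipy 1.17.1, and the Fisher test, tested on simulated data, with numba 0.67.0. CpGs needed 5 reads in all 6 samples. Depth sets the precision. The region and lists were chosen with earlier results of these data known. Named windows have 3 CpGs and a level of at least 0.2, and named CpGs a level of at least 0.5, in any sample. The 8 comparisons, the alternatives (read minimum, thinning, window size, minimum difference) and the exact permutation test stand with their results. The other species were left out.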

Additional observations from a re-analysis of the deposited data

How the results depend on the processing

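The lower mean level of the HOX region kept its sign under every alternative tried. Leaving out 1 sample at a time gave a region minus rest difference between -0.00717 and -0.00702 in mean level and between -0.736 and -0.721 percentage points in methylated CpGs. Leaving oocyte out of the read minimum as well, 2 choices changed together and added after seeing the data, gave -0.00891 and -0.916. With 5 samples the exact sign-flip permutation test cannot go below p = 0.0625, so none of these passed it. Without CpGs at or above 0.2 over the 6 samples together, which was added after seeing the data, the differences were -0.00035 (exact permutation p = 0.0625) and -0.00852 percentage points (exact permutation p = 0.125). The mean-level difference was -0.00423 at 10 reads and -0.00858 at 1 read, and the share differed by -0.436 and -0.890 percentage points, all with p = 0.03125 in the exact permutation test. In the methylated window, sperm minus oocyte was 0.341 with 500-bp windows, on the same CpGs and reads as in the main setting. It was 0.362 after thinning, and neither was called. The count of called CpGs in the region was 0 under all alternatives. With 10 reads in all 6 samples the window held fewer than 3 CpGs and gave no value. No paired analysis between stages was possible because each stage is 1 pooled set of counts. Limits are the 1 to 7 oocyte reads per CpG in the window (5 to 7 at the 3 CpGs tested), the pooling of replicates, and the loss of 6 of the 9 block CpGs to the read minimum.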
